A study of Homo sapiens with 16 samples.

Results

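Gene expression was compared between BxPC3 and PANC-1 after both had been given gemcitabine; both are established human cell lines of pancreatic ductal adenocarcinoma. The comparison took 8 of the 16 libraries of the series, the 4 gemcitabine libraries of each line, and set every gene's level in treated PANC-1 against its level in treated BxPC3. The other 8 libraries, 4 without drug from each line, served to show which line differences were already there without drug and which appeared, widened, narrowed or shrank with it. Each library was made from poly-A enriched total RNA, and the labels of the control libraries name no vehicle, as the labels of the drug libraries name no dose and no time. Nothing says that libraries of one group came from different cultures, and the p-values below therefore describe the spread among libraries, part of which may be technical.

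Gemcitabine is a nucleoside drug resembling deoxycytidine. It enters cells mainly through the equilibrative transporter encoded by SLC29A1, is phosphorylated first by deoxycytidine kinase (DCK), is inactivated by cytidine deaminase (CDA), and in its phosphorylated forms inhibits ribonucleotide reductase and is built into DNA. BxPC3 is an epithelial line that lacks SMAD4, and PANC-1 is a line of more mesenchymal habit that keeps SMAD4. Both have lost CDKN2A. With 1 line of each kind, a difference between them belongs to these 2 lines and cannot be assigned to any 1 of these features.

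Levels are in FPKM, fragments scaled to gene length and library size, as deposited. Means are given ± SD over the 4 libraries of a group. Line differences are PANC-1 minus BxPC3 on log2(FPKM + 1), given ± SE, so that positive values are higher in PANC-1; adding 1 before the logarithm makes the difference smaller than the true fold for weakly expressed genes. Tests are limma's moderated test with Benjamini-Hochberg adjustment over all genes tested, and a gene is called at an adjusted p below 0.05. The authors' 2 tables, 1 for each line, had been scaled separately, so any level set across lines also carries the difference between their scales, which cannot be told apart from a difference that all genes of a line share. Scaling all libraries jointly by median ratios moved the median line difference of all genes by -0.22, and scaling every library to the same sum (TPM scaling) moved it by 0.20. Values under these scalings are given where they turn the direction or the balance of a result, and the counts of calls in several other lists also move by a few genes. Counts of called genes in a list are to be read against 48.1% of all genes called higher in treated PANC-1 and 33.7% in treated BxPC3.

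SMAD4 and CDKN2A were read first, as a check of the labels. SMAD4, the mediator shared by TGF-beta and BMP signalling, had no read in any BxPC3 library and was at 3.03, 3.87, 3.94 and 3.8999 FPKM in treated PANC-1. CDKN2A was without a read in all 16 libraries. The summed level of 6 ductal epithelial markers (KRT7, KRT8, KRT18, KRT19, EPCAM and CDH1) was 2672 to 3101 FPKM in treated BxPC3 and 551 to 758 FPKM in treated PANC-1, where CDH1 stayed below 1 FPKM in all 4 libraries. Markers of other cell types were near 0: the 5 leukocyte markers summed to at most 0.835 FPKM in treated BxPC3 and 0.314 FPKM in treated PANC-1. Exceptions were 1 fibroblast marker (COL1A1), 1 endothelial marker (CDH5, 5.76 ± 0.263 FPKM in treated BxPC3) and 1 acinar marker (PRSS1, 14.1 ± 0.643 FPKM there), while the other markers of these 3 lists stayed below 1 FPKM in every treated BxPC3 library. In RNA from whole cultures, fewer cells of a type and less RNA per cell cannot be told apart.

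Total reads recovered from the treated libraries ranged from 22152034 to 34305420, and 3 reads on a gene of 1 kb correspond to 0.0852 to 0.138 FPKM. The first principal component of the treated libraries held 95.6% of the variance and separated the lines. PANC-1 treated library 1 stood apart from its 3 companions along the second (2.89%): its genes with the highest GC content (the top 25% of genes) lay 0.44 above the group's mean in the median and those with the lowest (the bottom 25%) -0.41. Line differences also moved with GC content, with a median of -0.30 at the highest GC content (966 genes higher in PANC-1 and 1674 in BxPC3, of 3294) and 0.46 at the lowest (1990 and 593); the part of GC content in any single result was not tested. The same medians were -0.25 and 0.49 in the control libraries, and the change of the line difference with drug had medians of -0.03 and -0.02. Without PANC-1 library 1 that change had medians of -0.14 and 0.09.

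Of 13180 genes at 1 FPKM or more in at least 4 of the 8 treated libraries, 6335 (48.1%) were higher in treated PANC-1, 4447 (33.7%) were higher in treated BxPC3, and 2398 were not called. A difference of at least 2-fold was called for 2493 genes (18.9%) in favour of PANC-1 and 1990 (15.1%) in favour of BxPC3. The excess on the PANC-1 side followed the scale of the tables. Under joint scaling 5177 genes (39.3%) were higher in PANC-1 and 5506 (41.8%) in BxPC3. PANC-1 then held 48.5% of the calls where it had held 58.8%, and 41.95% of the 2-fold calls where it had held 55.6%. TPM scaling made the excess larger, with 7135 genes higher in PANC-1 and 3784 in BxPC3, and 3773 and 1997 by at least 2-fold. Among genes called both as deposited and under joint scaling, 9624 were called the same way and 0 in opposite ways. Genes called under only 1 of these scalings are not covered, and ELAVL1, called as deposited, changed sign under joint scaling. All 4 treated PANC-1 libraries lay above all 4 treated BxPC3 libraries for 5977 genes (45.3%), and all 4 below for 4149 (31.5%). Leaving out PANC-1 library 1 raised the number called from 10782 to 11846, of which 10745 were called in the same direction with it.

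The largest difference in favour of PANC-1 was that of PSAP (chr10:71816298-71851375, GRCh38), the precursor of the saposins that help lysosomal enzymes break down sphingolipids. It was at 2580.3, 2149.9, 2216 and 2143 FPKM in the 4 treated PANC-1 libraries, a sum of 791930 reads, and had no read in any treated BxPC3 library. PSAP had been as unequal without drug, at 1919 ± 28.5 FPKM in PANC-1 and 0.00207 ± 0.00413 in BxPC3. Next came PADI2, a peptidylarginine deiminase that converts arginine in proteins to citrulline, at 215, 181, 184 and 180.5 FPKM in treated PANC-1 against 0.092004, 0.0902, 0.126 and 0.0634 in treated BxPC3. This gap had widened with drug, from 5.47 to 7.45 ± 0.07 (adjusted p = 1.16e-12), as PADI2 rose by 1.92 in PANC-1. The neurotensin receptor gene NTSR1 was at 104 ± 23.1 FPKM in treated PANC-1, up from 47.3 ± 3.02 without drug, and 0.0251 ± 0.009496 in treated BxPC3.

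DKK3, which encodes a secreted glycoprotein of the Dickkopf family, had 51469 reads in treated PANC-1 (94.7 ± 9.69 FPKM) and none in BxPC3. ANPEP, an aminopeptidase of the cell surface, was at 86.4, 61.3, 62.8 and 61.01 FPKM in treated PANC-1 and 0.0499 ± 0.0388 in BxPC3, with a difference of 6.02 ± 0.11. STC2, a secreted stanniocalcin induced by endoplasmic reticulum stress, was at 87.2 ± 7.43 against 0.0654 ± 0.0121 FPKM, and CD81, a tetraspanin of the plasma membrane, at 57.9 ± 11.6 against 0.00693 ± 0.00649. COL18A1, whose collagen chain contains endostatin, was at 246, 152, 152 and 150.0 FPKM in treated PANC-1 and 2.21, 2.01, 1.87 and 1.76 in BxPC3. PPP1R14A, an inhibitor of myosin phosphatase, was at 107 ± 28.2 against 0.729 ± 0.225 FPKM and completed the 10 largest together with VIM. Library 1 gave the highest of the PANC-1 values in NTSR1, COL18A1 and PPP1R14A, and also in PSAP, PADI2, DKK3, ANPEP and CD81. Without library 1 the difference was 6.51 for NTSR1 (with it 6.65), 5.69 for COL18A1 (5.86) and 5.78 for PPP1R14A (5.95).

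The largest differences in favour of BxPC3 belonged to stratified-epithelium keratins, secreted antiproteases and surface proteins of epithelia. KRT17 (chr17:41619441-41624842), a keratin of basal and activated keratinocytes, was at 1319.8, 1360.1, 1485 and 1558 FPKM in the treated BxPC3 libraries and at 0.0882, 0.0546, 0.0501 and 0.0199 FPKM in the treated PANC-1 libraries, a difference of -10.41 ± 0.07 (adjusted p = 1.76e-13). PI3, the elastase inhibitor elafin, was at 1143, 1235, 1282 and 1357 FPKM in treated BxPC3 and summed to 8 reads in treated PANC-1. SLPI, another secreted inhibitor of leukocyte proteases, was at 644 ± 61.9 FPKM in treated BxPC3 and 0.0774 ± 0.0268 in treated PANC-1. KRT5, the basal partner of KRT14, was at 799 ± 40.5 FPKM in treated BxPC3 against 0.0156 ± 0.01403 FPKM in treated PANC-1. S100A9, a calcium-binding subunit of calprotectin, was at 537 ± 45.1 FPKM and had 1 read in treated PANC-1. AQP3 (a water and glycerol channel), KRT7 (a ductal keratin) and F3 (tissue factor, the starter of the extrinsic clotting pathway) were at 491 ± 12.7, 741 ± 45.2 and 606 ± 9.73 FPKM in treated BxPC3 and at 0.301 ± 0.0305, 1.17 ± 0.431 and 1.01 ± 0.162 in treated PANC-1.

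Not all of these differences had stayed at the size seen without drug. AQP3 had fallen in BxPC3 from 1106 ± 21.1 FPKM, and its line difference narrowed from -9.73 to -8.56 ± 0.05. F3 had risen there from 167 ± 2.72 FPKM, PI3 from 401 ± 27.2 FPKM and KRT6A, a keratin induced in wounded epithelium, from 116 ± 1.72 FPKM to 491 ± 23.04. The line difference of KRT6A widened, with an interaction of -2.08 ± 0.06 (adjusted p = 1.37e-13) with 1 read in all treated PANC-1 libraries together.

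Among 15 keratins tested, 12 were higher in treated BxPC3 and 2 in treated PANC-1 (KRT80 and KRT81), with a median difference of -2.60 beside 0.19 for all genes; under joint scaling 1 was higher in PANC-1. The family did not move as one with drug. KRT6A and KRT16 widened, KRT6B and KRT14 came to differ by 2-fold on the log2(FPKM + 1) scale, KRT19 narrowed and KRT15 shrank. KRT14 was at 4.42, 4.73, 6.06 and 5.21 FPKM in treated BxPC3, after 0.781 ± 0.0925 without drug, and had 1 read in all treated PANC-1 libraries together. With 8 reads in all control PANC-1 libraries, its difference was new only on that scale. Of 26 tested genes that define the basal-like (squamous) subtype of pancreatic cancer, 25 were higher in treated BxPC3 and 0 in PANC-1, with a median of -4.11. TP63, the squamous lineage factor, was at 23.5, 24.1, 21.4 and 20.9 FPKM in treated BxPC3 and 0.0803, 0.0916, 0.0842 and 0.0917 in PANC-1; its values were read after the data had been seen.

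Genes of the classical subtype also lay on the side of BxPC3, with 11 of 14 tested higher there and 2 (FOXA2 and AGR2) in PANC-1, and 14 of the 28 listed were below the filter. GATA6, a transcription factor used to tell the classical subtype and likewise looked up afterwards, was at 31.97, 30.4, 32.8 and 30.6 FPKM in treated BxPC3 and 1.44, 1.23, 1.36 and 1.35 in treated PANC-1. Of 32 genes of epithelial adhesion, 29 were higher in treated BxPC3 and 2 in PANC-1 (OCLN and DSC2), with a median of -2.81. CDH1, encoding E-cadherin, was at 94.5, 94.7, 88.9 and 85.99 FPKM in treated BxPC3 and 0.499, 0.481, 0.628 and 0.594 in PANC-1, a 165-fold difference. The epithelial genes had a median line difference of -3.51 without drug, and of the 23 whose difference changed with drug 17 moved toward PANC-1 and 6 toward BxPC3, beside 25.2% and 26.6% of all genes.

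Of 18 mesenchymal genes tested, 12 were higher in treated PANC-1 and 4 in BxPC3 (SNAI2, FN1, AXL and CDH11), with a median of 1.41; joint scaling gave 11 and 6 and a median of 1.24. The 4 fibroblast markers summed to 2.57 to 2.85 FPKM in treated BxPC3 and 7.87 to 11.4 FPKM in treated PANC-1, with 3 of the 4 below 1 FPKM in every treated library of both lines, and their part in these differences was not tested. Vimentin (VIM), the intermediate filament of mesenchymal cells, was at 176, 225, 228 and 220.1 FPKM in treated PANC-1 and 2.35, 2.52, 2.54 and 2.27 in treated BxPC3. The VIM difference of 5.95 ± 0.09 was smaller than the 7.49 seen without drug, VIM having risen in BxPC3 by 1.19 from 0.5001 ± 0.0726 FPKM while it fell by 0.34 in PANC-1. MMP2, a gelatinase, was at 54.6, 41.4, 42.7 and 41.9 FPKM in treated PANC-1 against 141 ± 7.57 without drug, and 0.0585 ± 0.0391 in treated BxPC3. ZEB1, a repressor of E-cadherin looked up after the data had been seen, was at 3.15, 4.63, 4.66 and 4.22 FPKM in treated PANC-1 and 0.05304, 0.0722, 0.0531 and 0.0776 in treated BxPC3. SNAI2, a repressor of the same target, ran the other way, at 26.2, 24.3, 24.4 and 25.5 FPKM in treated BxPC3 and 0.787, 0.806, 0.786 and 0.962 in treated PANC-1.

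FN1, encoding fibronectin, came to lie on the BxPC3 side with drug. It had been at 16.9 ± 1.02 FPKM in PANC-1 and 0.609 ± 0.0567 in BxPC3 without drug. With drug it was at 8.96, 8.79, 7.45 and 7.06 FPKM in BxPC3 and 6.67, 5.88, 5.72 and 5.82 FPKM in PANC-1, so that the lowest BxPC3 value lay above the highest PANC-1 value, and its line difference had moved by -3.84 ± 0.10 (adjusted p = 7.76e-14). The treated difference itself, -0.36 ± 0.09 (adjusted p = 0.00337), was not called under TPM scaling (-0.22, adjusted p = 0.0772). CDH11, encoding a cadherin of osteoblasts and mesenchyme, was at 5.75, 5.16, 5.29 and 5.07 FPKM in treated BxPC3, and at 0.0686 ± 0.0237 in treated PANC-1. It had been on the same side without drug, at 0.735 ± 0.0513 FPKM in BxPC3 and 0.0976 ± 0.0164 in PANC-1. HOX genes, which give cells their position along the body axis, were nearly all on the PANC-1 side: 18 of 21 tested were higher in treated PANC-1 and 2 in BxPC3, with a median of 1.49. Over the 22 tested across all 16 libraries, the median without drug had been 2.07. HOXB6, HOXB8, HOXB9 and HOXC9 narrowed by at least 2-fold. HOXB8 stood at 12.97, 14.6, 12.6 and 12.5 FPKM in treated PANC-1 against 41.1 ± 2.06 FPKM without drug. The exceptions were HOXA3 and HOXA10, the latter at 6.68 ± 0.458 FPKM in treated BxPC3 and 0.0574 ± 0.00691 in treated PANC-1.

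Some genes of 1 line had no read at all in the other. In treated BxPC3, 69 genes (43 protein-coding) without a read were at 1 FPKM or more in every treated PANC-1 library, and 28 of the 43 had no read in the BxPC3 controls either. In treated PANC-1 the count was 85 genes (50 protein-coding), and 38 of the 50 had no read in the PANC-1 controls either. Several of them were neighbours on a chromosome. Around SMAD4, a stretch of chr18:50878734-51218304 that also holds ME2, ELAC1 and MEX3C had no read in BxPC3, while MEX3C was at 8.51 ± 1.13 FPKM and ME2 at 4.24 ± 0.557 in treated PANC-1. On chr21:41464551-42143453 the same was true of TMPRSS2, RIPK4, PRDM15, C2CD2 and ZBTB21, with RIPK4, a kinase of epidermal differentiation, at 21.4 ± 3.87 FPKM in treated PANC-1.

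Around PSAP, a region looked at only after its values had been seen, VSIR and ANAPC16 also had no read in treated BxPC3. CHST3 and ASCC1 summed there to 14 and 17 reads, against 23.7 ± 1.55 FPKM for ANAPC16 and 16.97 ± 1.67 FPKM for CHST3 in treated PANC-1. The genes on either side, SLC29A3 and DDIT4, were expressed in both lines, at 2.88 ± 0.129 and 34.8 ± 1.74 FPKM in treated BxPC3. In PANC-1 the stretches without reads were chr1:152947154-153032900, with SPRR1A, SPRR3 and SPRR1B, and chr1:153056113-153348840, with SPRR2A, SPRR2B, SPRR2E, SPRR2F, PGLYRP3 and PGLYRP4, in a cluster of cornified-envelope genes. SPRR1B was at 119.5, 124, 116 and 126 FPKM in treated BxPC3. RNA alone does not tell a missing gene from a silent one.

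Most large line differences were present with and without drug. Across 14134 genes tested over all 16 libraries, 7136 (50.5%) were higher in control PANC-1 and 4936 (34.9%) in control BxPC3, and the line difference with drug correlated with that without (Pearson r = 0.91, a description across genes whose levels share the 2 tables). The median absolute difference was 0.72 without drug and 0.67 with it, and 5067 genes differed by at least 2-fold without drug against 4574 with it. Of those 5067 genes, 66 had a treated difference of the opposite sign. The drug itself moved many genes in each line: in BxPC3 4377 genes (31.0%) rose and 4249 (30.1%) fell, and in PANC-1 3458 (24.5%) rose and 3777 (26.7%) fell. The line difference itself changed with drug, tested as the interaction of line and drug, for 7319 genes, 3565 (25.2%) toward PANC-1 and 3754 (26.6%) toward BxPC3, and 1093 of these changes were at least 2-fold. Joint scaling moved the median interaction by 0.003, whereas leaving out PANC-1 library 1 raised the number of called interactions to 9194.

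Genes were sorted by whether their line difference was called and at least 2-fold in each state and whether the interaction was called and at least 2-fold. A 2-fold difference in the same direction in both states was kept by 3536 genes (25.0%), of which 108 (0.764% of all) widened and 298 (2.11%) narrowed by at least 2-fold. With an interaction past both limits, such a difference appeared with drug in 242 genes (1.71%), shrank below 2-fold in 329 (2.33%) and changed direction in 2 (0.0142%). A further 794 genes were at 2-fold only with drug and 1200 only without it, but their interaction did not pass both limits, so they are not counted as appearing or shrinking. The widened, narrowed and direction-changing classes depended most on the scale. They held 278, 793 and 17 genes with 0.1 added in place of 1, and 244, 562 and 14 under TPM scaling. With limma-voom run on reads with joint scaling, a setting added after the data had been seen, they held 270, 939 and 17. Under joint scaling 103 of the widened, 283 of the narrowed, 214 of the appearing and 279 of the shrinking genes stayed in their class. Without PANC-1 library 1 these numbers were 103, 266, 222 and 287, and both genes that changed direction did so under either setting, joined by 2 others without library 1 (4 in all).

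**Figure D1:**
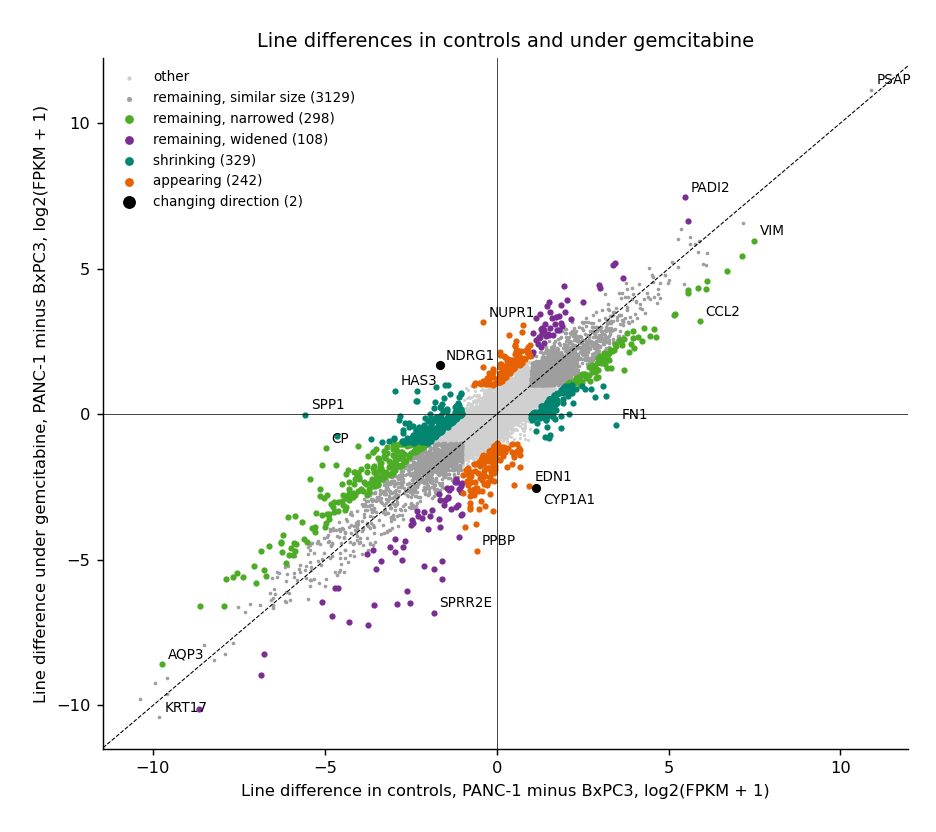
Line difference of each gene, PANC-1 minus BxPC3 on log2(FPKM + 1), without drug (horizontal axis) and with gemcitabine (vertical axis); each point is a gene and the dashed line marks equal differences, and genes of the Y chromosome and 1 further sex-linked gene were not drawn. Most points lie along the dashed line (r = 0.91), and coloured points mark the 242 appearing, 329 shrinking, 108 widened, 298 narrowed and 2 direction-changing genes.

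The 2 lines' own drug changes were set side by side for these classes. The BxPC3 change was the larger in 161 of the 242 appearing genes and in 224 of the 329 shrinking genes. Of the 140 genes that appeared in favour of BxPC3, 137 had risen in BxPC3 and 33 had fallen in PANC-1. Of the 102 that appeared in favour of PANC-1, 90 had risen in PANC-1 and 57 had fallen in BxPC3. Since the classes are defined from these same changes, the counts describe them and test nothing.

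Endothelin 1 (EDN1, chr6:12290363-12297194), a vasoconstrictor peptide, is a clear case of a difference that appeared in favour of BxPC3. Without drug it was at 1.18, 1.12, 1.51 and 1.49 FPKM in BxPC3 and 3.26, 3.37, 4.098 and 3.19 FPKM in PANC-1. With drug it was at 15.7, 15.6, 15.2 and 16.01 FPKM in BxPC3 and 1.65, 2.28, 2.02 and 2.08 FPKM in PANC-1, a difference of -2.47 ± 0.07 (adjusted p = 1.17e-09), and the interaction was -3.42 ± 0.11 (adjusted p = 7.02e-13). The order of the lines had thus turned, with EDN1 2.63-fold higher in PANC-1 without drug and 7.78-fold higher in BxPC3 with it.

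ALPG, a germ-cell alkaline phosphatase, was at similar levels without drug (3.51 ± 0.668 FPKM in BxPC3 and 3.13 ± 0.211 in PANC-1) and then parted in both directions, to 13.2, 12.96, 13.7 and 13.7 FPKM in treated BxPC3 and 0.48002, 0.562, 0.236 and 0.474 FPKM in treated PANC-1. Its near-identical relatives on the same chromosome may share reads with it, so the split among them is uncertain. The chemokine CCL28 went from 4.1004 ± 0.0642 FPKM in BxPC3 and 1.71 ± 0.123 in PANC-1 to 36.2 ± 0.561 and 1.54 ± 0.354 FPKM. For PPBP (the platelet chemokine CXCL7) and AZGP1 (a secreted zinc-binding glycoprotein) the difference was new only on the scale used, since they were at 0.4996 ± 0.0712 and 0.5202 ± 0.0516 FPKM in control BxPC3 and had 0 and 2 reads in all control PANC-1 libraries together. With drug PPBP was at 23.1, 25.2, 25.1 and 26.05 FPKM in BxPC3 and still without a read in PANC-1.

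On the PANC-1 side, the largest interaction among protein-coding genes of this class belonged to NUPR1 (chr16:28532708-28539174), a small chromatin protein of the stress response. It was similar without drug, at 33.1 ± 2.61 FPKM in BxPC3 and 24.9 ± 0.645 in PANC-1. With drug it fell to 1.69, 1.81, 1.52 and 1.903 FPKM in BxPC3 and was at 28.4, 22.6, 22.2 and 21.3 FPKM in PANC-1, a 13.7-fold difference. SORL1, a sorting receptor of endosomes, was at 3.16 ± 0.269 and 3.46 ± 0.145 FPKM without drug, and with drug at 1.83, 1.79, 1.45 and 1.39 FPKM in BxPC3 and 10.98, 10.8, 10.4 and 10.2 in PANC-1, having fallen in 1 line and risen in the other. In RGS17 (a regulator of G-protein signalling), ITPKB (an inositol-trisphosphate kinase) and ADAM19 (a membrane protease) PANC-1 changed more than BxPC3, with rises of 1.96, 2.17 and 2.63. RGS17 was at 4.69, 9.202, 8.47 and 9.22 FPKM in treated PANC-1, the lowest value being that of library 1.

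**Figure D2:**
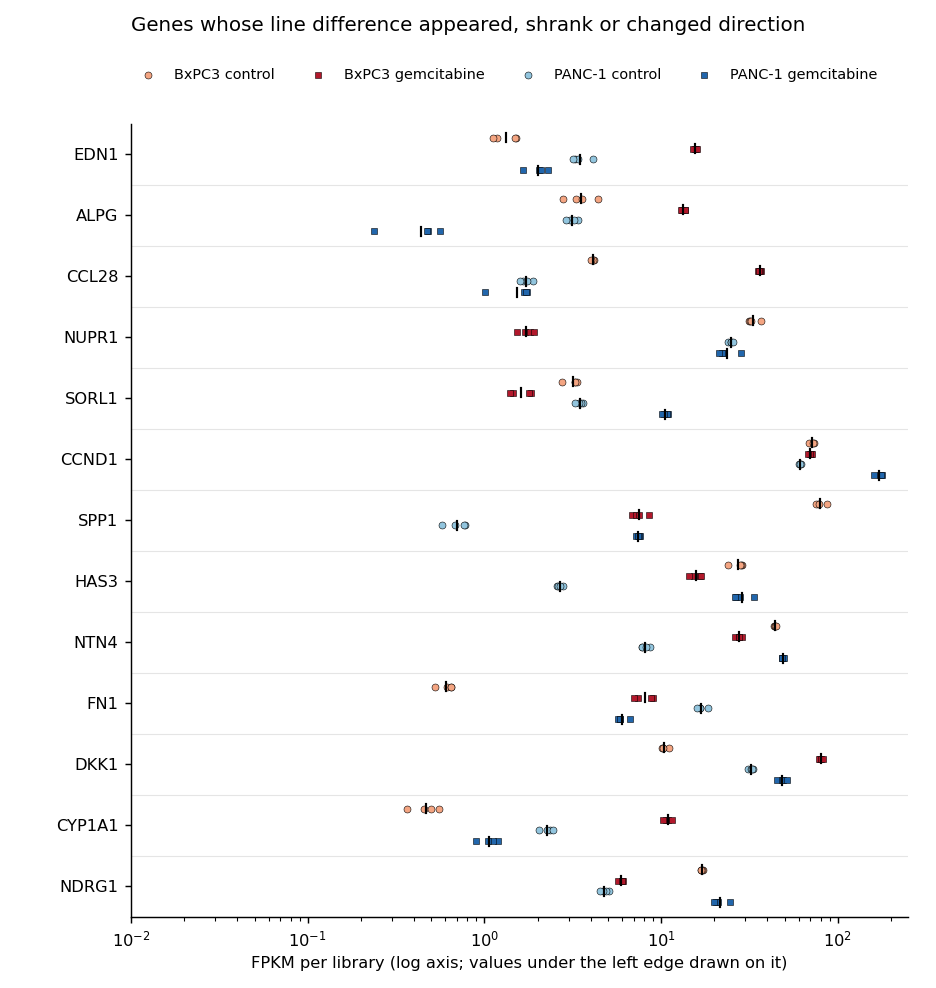
FPKM of 13 genes (horizontal axis, logarithmic) in each of the 16 libraries, by line and treatment; each point is a library and black ticks are group means. EDN1, ALPG and NUPR1 are alike in the 2 lines without drug or lean the other way and part with it. SPP1 and FN1 differ without drug and draw together, with FN1 ending slightly higher in BxPC3. HAS3, NTN4 and DKK1 change order between the lines, and NDRG1 and CYP1A1 do so with at least a 2-fold difference in each state.

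Among protein-coding genes whose difference shrank, SPP1 had the largest interaction (chr4:87975650-87983426). It encodes osteopontin, a secreted phosphoprotein of bone and tumours. Without drug it was at 77.3, 87.3, 75.4 and 78.3 FPKM in BxPC3 and 0.575, 0.776, 0.769 and 0.682 FPKM in PANC-1, a difference of -5.57. With drug it was at 6.85, 7.23, 8.51 and 7.47 FPKM in BxPC3 and 7.24, 7.62, 7.53 and 7.36 FPKM in PANC-1. The treated groups overlapped, and their difference was -0.01 ± 0.07 (adjusted p = 0.901); joint scaling gave -0.24 (adjusted p = 0.00844). SPP1 had fallen by 3.24 in BxPC3 and risen by 2.31 in PANC-1.

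The same movement from both sides was seen in HAS3, a hyaluronan synthase, in NTN4, a netrin, and in IGFBP4, a binding protein of insulin-like growth factors. HAS3 went from 27.3 ± 2.26 FPKM in BxPC3 and 2.67 ± 0.0885 in PANC-1 to 15.8 ± 1.08 and 28.6 ± 3.303, and NTN4 from 44.2 ± 0.533 and 8.15 ± 0.418 to 27.6 ± 0.951 and 48.9 ± 0.639. IGFBP4, at 289 ± 19.05 and 55.8 ± 2.51 FPKM without drug, was at 177, 173, 192 and 184 FPKM in treated BxPC3 and 329.5, 231, 229.6 and 219 in treated PANC-1, and its treated difference of 0.45 ± 0.12 was lost under joint scaling (0.19, adjusted p = 0.224). MSMB, a secreted protein of the prostate, fell in BxPC3 from 24.5 ± 3.74 to 0.724 ± 0.222 FPKM, below the filter of the treated comparison. It had at most 1 read in all PANC-1 libraries of either state, so its difference shrank below 2-fold only on the log2(FPKM + 1) scale. On the other side FN1 was joined by DKK1, a secreted inhibitor of Wnt signalling, which rose in BxPC3 from 10.4 ± 0.416 to 80.3 ± 1.81 FPKM and in PANC-1 from 32.4 ± 0.9796 to 48.6 ± 2.73. PRRX2, a homeobox gene of mesenchyme, drew together from 1.48 ± 0.141 FPKM in BxPC3 and 8.02 ± 0.536 in PANC-1 to 4.81, 5.27, 5.16 and 5.41 FPKM in treated BxPC3 and 5.06, 2.501, 3.74 and 2.702 in treated PANC-1, and the groups overlapped through PANC-1 library 1. Its treated difference of -0.49 ± 0.16 (adjusted p = 0.0169) was not called under TPM scaling (-0.40, adjusted p = 0.0576). HSPA6, a stress-induced chaperone, and RFLNA, a filamin-binding protein, fell in PANC-1 from 9.43 ± 0.548 to 1.39 ± 0.415 and from 9.76 ± 0.714 to 0.966 ± 0.271 FPKM, beside 0.561 ± 0.0681 and 0.2595 ± 0.0477 in treated BxPC3. In mean FPKM both stayed more than 2-fold higher in treated PANC-1, and they too fell below 2-fold only on the log2(FPKM + 1) scale.

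On the log2(FPKM + 1) scale, NDRG1 and CYP1A1 were the 2 genes called with a difference of at least 2-fold in opposite directions, and EDN1, at 0.95 without drug, fell short of it. The number of such genes rests on the scale: it was 17 with 0.1 added in place of 1, 14 under TPM scaling and 17 with limma-voom. NDRG1, a gene induced by hypoxia, had been 3.57-fold higher in BxPC3, and with drug was at 6.003, 6.11, 5.71 and 5.99 FPKM in BxPC3 and 24.5, 20.5, 20.97 and 19.9 FPKM in PANC-1, 3.61-fold higher in PANC-1. CYP1A1 (chr15:74719542-74725610), the cytochrome induced by the aryl hydrocarbon receptor, had been 4.84-fold higher in PANC-1, and with drug was at 10.997, 10.7, 10.3 and 11.6 FPKM in BxPC3 and 1.19, 1.11, 0.902 and 1.05 FPKM in PANC-1. Neither gene's treated groups overlapped, and their interactions were 3.33 ± 0.08 and -3.68 ± 0.08.

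Among the genes that widened in favour of BxPC3, all 62 had risen in BxPC3, beside 31.0% of all genes. The class is defined from the same changes, so this count describes it and tests nothing. The largest interactions were those of small proline-rich proteins of the cornified envelope and of SERPINB2, the plasminogen activator inhibitor PAI-2. SERPINB2 was at 92.4, 89.3, 87.8 and 93.6 FPKM in treated BxPC3, after 4.795 ± 0.135 without drug, with 7 reads in all treated PANC-1 libraries together. SPRR2A, SPRR2D and SPRR2E rose in BxPC3 to 150.3 ± 20.3, 95.6 ± 7.65 and 112 ± 10.1 FPKM from 12.4 ± 0.738, 6.43 ± 0.763 and 2.59 ± 0.545. These are near-identical copies among which reads can be split, so the level of each alone is uncertain. Of the 46 genes that widened in favour of PANC-1, 44 had risen in PANC-1, beside 24.5% of all genes, a count with the same limit. ARSI, a sulfatase, COL13A1, a transmembrane collagen, CORO2B, a coronin, and LAMA4, a laminin chain, rose there from 4.86 ± 0.211, 1.94 ± 0.142, 1.46 ± 0.103 and 1.34 ± 0.0826 FPKM to 27.99 ± 6.48, 13.7 ± 0.645, 10.1 ± 1.08 and 9.33 ± 0.311. F2R, the thrombin receptor PAR1, widened from both sides, to 2.85, 2.26, 1.98 and 2.58 FPKM in treated BxPC3 and 38.2, 45.1, 45.6 and 46.5 in treated PANC-1, from 8.502 ± 0.445 and 24.96 ± 0.803.

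Of the 213 BxPC3-high genes that narrowed, 196 had fallen in BxPC3 and 104 had risen in PANC-1, beside 30.1% and 24.5% of all genes. Of the 85 PANC-1-high genes that narrowed, 62 had fallen in PANC-1 and 46 had risen in BxPC3, beside 26.7% and 31.0%. These counts, too, describe the class and test nothing. Ceruloplasmin (CP), the copper-carrying ferroxidase, fell in BxPC3 from 38.2 ± 2.54 to 1.41 ± 0.142 FPKM against 0.0783 ± 0.0316 in treated PANC-1. TXNIP, an inhibitor of thioredoxin that glucose induces, fell there from 784 ± 14.5 FPKM to 77.9, 77.6, 76.5 and 77.7 FPKM, and treated PANC-1 was at 21.4, 23.2, 22.1 and 24.3. NGFR, the low-affinity neurotrophin receptor, fell from 56.5 ± 0.715 to 11.4 ± 0.7301 FPKM and SNCG, a synuclein, from 80.95 ± 7.35 to 11.3 ± 1.55. Among the 85 PANC-1-high genes that narrowed, SOX9, a factor of ductal progenitors, rose in BxPC3 from 2.61 ± 0.2105 to 12.8, 13.01, 12.7 and 11.5 FPKM while treated PANC-1 was at 83.9, 84.8, 83.2 and 87.8. CTGF, a matricellular target of YAP and TGF-beta signalling, rose in BxPC3 from 1.22 ± 0.1798 to 6.63 ± 0.496 FPKM beside 229 ± 4.45 in treated PANC-1. The organic anion transporter gene SLCO4A1 rose from 0.351 ± 0.0186 to 4.897 ± 0.168 FPKM in BxPC3, beside 37.9 ± 10.1 in treated PANC-1. CTXN1, a cortexin, rose in BxPC3 to 4.99 ± 1.04 FPKM and was at 26.5, 13.1, 13.7 and 14.1 FPKM in treated PANC-1, where library 1 was the highest.

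Interferon-stimulated genes, which are switched on by type I and type III interferons and hold back viruses, were mostly higher in BxPC3 with drug. Of 50 tested, 38 were higher in treated BxPC3 and 7 in treated PANC-1 (among them IFI35, IFIH1, IFIT5, DDX58, IRF7 and SP100), with a median of -1.22 that had been -0.36 without drug; joint scaling gave 40 and 3. The interaction was called for 28 toward BxPC3 and 12 toward PANC-1, beside 26.6% and 25.2% of all genes, and the median drug change was 1.01 in BxPC3 and 0.47 in PANC-1. In 10 of the 50 a 2-fold difference appeared in favour of BxPC3 (IFI6, IFI44L, IFIT3, IFITM1, ISG15, MX2, DDX60, EPSTI1, CXCL10 and CXCL11). In 4 it widened (IFI27, IFI44, OASL and HERC6), while that of LGALS3BP narrowed and the PANC-1 excess of IFIT1, DDX58 and USP18 shrank. For CXCL10 and CXCL11 it was new only on the log2(FPKM + 1) scale, as described with the chemokines below. IFITM1 fell in both lines (-0.64 in BxPC3 and -2.11 in PANC-1), and MX2 changed by 0.20 in BxPC3 and -0.95 in PANC-1.

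The regulatory DNA of these genes is known for the interferon-stimulated response element, a site bound by factors that interferons activate. The motif GAAANNGAAA (TTTCNNTTTC on the other strand; copies may overlap) was searched in the promoters of RefSeq on GRCh38.p14, on both strands, over the stretch before and just after each start site. It occurred in 996 of 27305 promoters (3.65%), in 26 of 41 promoters of listed interferon-stimulated genes that had an entry (63.4%), in 10 of the 12 whose excess in BxPC3 appeared or widened (83.3%) and in 16 of the other 29 (55.2%). A match is a run of letters and shows no binding. The shares above cover 250 bases before and 50 bases after each start site, whereas the sequences below hold only the 250 bases before it. They are given for 4 genes that took different courses: in IFI27 the BxPC3 excess widened, in IFI6 and ISG15 it appeared, and in IFIT1 the PANC-1 excess shrank. Each sequence is written 5′ to 3′ along the gene's strand with the motif in capitals.
IFI27, chr14:94110486-94110735, plus strand: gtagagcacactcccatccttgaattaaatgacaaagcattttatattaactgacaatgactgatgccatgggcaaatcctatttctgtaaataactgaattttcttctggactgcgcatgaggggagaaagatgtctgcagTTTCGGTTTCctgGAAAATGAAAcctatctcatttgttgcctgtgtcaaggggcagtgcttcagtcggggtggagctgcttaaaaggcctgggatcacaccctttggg
IFI6, chr1:27672193-27672442, minus strand: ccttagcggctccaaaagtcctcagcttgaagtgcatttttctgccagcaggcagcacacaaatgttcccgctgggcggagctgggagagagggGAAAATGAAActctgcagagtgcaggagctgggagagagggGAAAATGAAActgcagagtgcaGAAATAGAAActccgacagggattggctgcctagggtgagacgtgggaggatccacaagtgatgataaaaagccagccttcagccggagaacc
ISG15, chr1:1013247-1013496, plus strand: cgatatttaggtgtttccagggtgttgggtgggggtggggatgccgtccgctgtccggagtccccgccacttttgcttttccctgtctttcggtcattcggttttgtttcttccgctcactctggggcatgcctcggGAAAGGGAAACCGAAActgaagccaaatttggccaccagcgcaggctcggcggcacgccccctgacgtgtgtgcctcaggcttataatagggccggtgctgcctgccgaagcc
IFIT1, chr10:89392373-89392622, plus strand: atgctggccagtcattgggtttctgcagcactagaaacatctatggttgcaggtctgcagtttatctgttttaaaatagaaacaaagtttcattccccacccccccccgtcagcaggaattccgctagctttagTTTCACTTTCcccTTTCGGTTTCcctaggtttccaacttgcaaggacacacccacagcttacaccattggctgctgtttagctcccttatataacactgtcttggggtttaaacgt
All 4 hold at least 2 copies, including IFIT1, whose treated levels overlapped between the lines. Other listed genes had 0 copies in these 250 bases, among them CXCL11, whose BxPC3 excess appeared, and HERC6, whose excess widened. The 4 sequences shown therefore do not stand for the whole list.

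IFI27, a mitochondrial protein and one of the most interferon-responsive genes, was at 123, 132, 143 and 155 FPKM in treated BxPC3 and 0.3996, 0.535, 0.501 and 0.532 FPKM in treated PANC-1. Its difference of -6.54 ± 0.08 had been -3.56 without drug. IFI6, an endoplasmic reticulum protein that restrains flaviviruses, had been lower in BxPC3 (24.02 ± 2.22 FPKM) than in PANC-1 (34.5 ± 1.02) and with drug was at 425, 442, 505 and 513 FPKM in BxPC3 and 114, 77.7, 76.5 and 79.1 FPKM in PANC-1. It rose in both lines, by 4.24 and 1.29, and the interaction of -2.95 ± 0.16 was called (adjusted p = 2.18e-10). ISG15, a ubiquitin-like modifier, had been alike at 42.4 ± 5.13 and 42.95 ± 2.83 FPKM and with drug was at 209, 218, 236 and 263 FPKM in BxPC3 and 112, 67.7, 71.6 and 68.2 in PANC-1. Without PANC-1 library 1, the highest of its group for IFI6 and ISG15, the interactions were -3.09 and -1.75.

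IFIT1, which binds foreign RNA, was at 8.49, 8.29, 8.21 and 8.69 FPKM in treated BxPC3 and 5.85, 8.64, 8.48 and 8.73 in treated PANC-1, overlapping, after 0.603 ± 0.0989 and 3.97 ± 0.0964 without drug; its treated difference of -0.09 ± 0.11 (adjusted p = 0.462) was called in favour of BxPC3 under joint scaling (-0.33, adjusted p = 0.0148). USP18, the protease that removes ISG15, ended at 4.97, 5.04, 5.21 and 5.28 FPKM in BxPC3 and 4.09, 3.39, 3.76 and 3.02 in PANC-1 after 0.425 ± 0.111 and 2.89 ± 0.257. BST2 (tetherin) was at 201 ± 18.8 FPKM in treated BxPC3 and 3.18 ± 0.534 in treated PANC-1, after 164 ± 17.6 and 0.976 ± 0.248 without drug. HERC6, a member of the HECT family of ubiquitin ligases, was at 9.44 ± 0.248 against 0.195 ± 0.05205 FPKM. Of the interferons, IFNL1 was read after the data had been seen and stood below the filter: 0.535, 0.166, 0.345 and 0.511 FPKM in treated BxPC3 and 0.483, 0.399, 0.457 and 0.326 in treated PANC-1, 44 and 38 reads in all, with overlapping groups. Its control means were 0.0408 ± 0.0389 and 0.03496 ± 0.0233 FPKM. The values of IFI6, IFI44L, ISG15, IFIT1, USP18 and CXCL10 were likewise picked after the data had been seen.

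**Figure D3:**
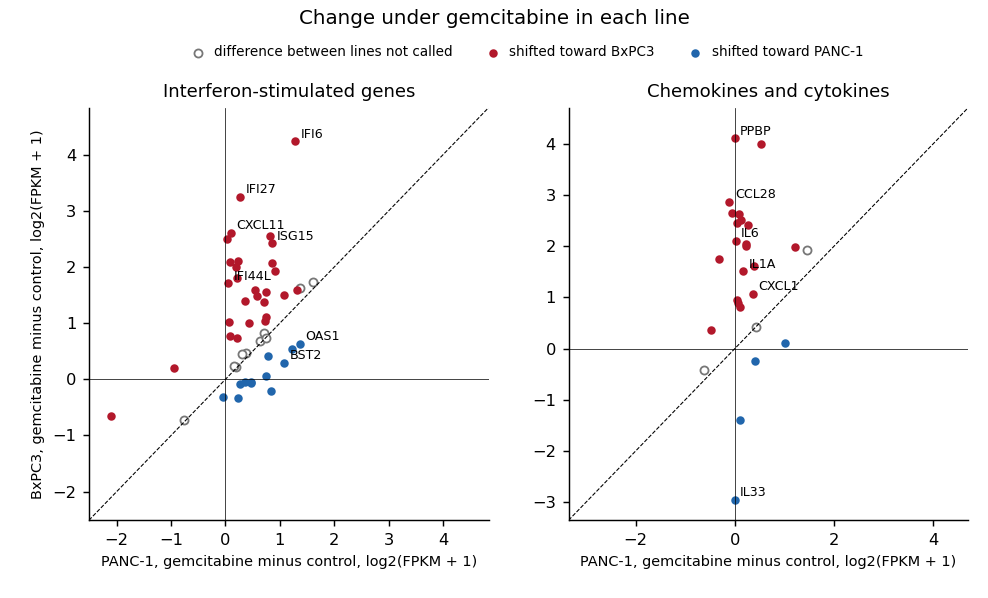
Drug change of each interferon-stimulated gene (left) and each chemokine or cytokine gene (right) in PANC-1 (horizontal axis) and BxPC3 (vertical axis), gemcitabine minus control on log2(FPKM + 1); points are genes, filled where the line difference changed with drug, and the dashed line marks equal changes. Of the interferon-stimulated genes 28 lie above the line and 12 below it as filled points, and of the chemokines and cytokines 20 and 4.

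Of 27 chemokine and cytokine genes tested, 22 were higher in treated BxPC3 and 4 in PANC-1 (CCL2, LIF, CSF1 and CX3CL1), with a median of -2.73 that had been -0.91 without drug. The interaction was called toward BxPC3 for 20 and toward PANC-1 for 4, beside 26.6% and 25.2% of all genes. CXCL1, a neutrophil chemokine acting on CXCR2, was at 304, 319, 329 and 348 FPKM in treated BxPC3 and 5.43, 4.797, 5.54 and 5.802 in treated PANC-1, and both lines had raised it, from 154 ± 10.99 and 3.98 ± 0.707 FPKM. Its relatives CXCL2, CXCL3 and CXCL5 widened together with the alarmins IL1A and IL1B and the colony-stimulating factor CSF3.

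CXCL10, an interferon-induced ligand of CXCR3, was at 8.35, 8.33, 9.27 and 9.68 FPKM in treated BxPC3, and CXCL11, a ligand of the same receptor, was at 7.77, 6.68, 7.62 and 7.54. In treated PANC-1 they had 5 and 15 reads in all, and control BxPC3 had been at 0.771 ± 0.302 and 0.383 ± 0.0964 FPKM. Their line differences without drug, -0.79 and -0.47 on log2(FPKM + 1), were close to the whole of that BxPC3 level. A 2-fold difference was thus new only on that scale. IL6 rose in BxPC3 from 0.12002 ± 0.0335 FPKM to 3.43, 3.93, 3.97 and 4.01 FPKM with 3 reads in treated PANC-1. The monocyte chemokine CCL2 ran counter, at 49.8, 61.8, 63.6 and 59.6 FPKM in treated PANC-1, but BxPC3 had raised it from 0.03197 ± 0.0314 FPKM to 4.99, 6.14, 4.73 and 6.07, so that the gap narrowed from 5.91 to 3.20 ± 0.10. IL33, a nuclear alarmin, fell in BxPC3 from 15.4 ± 0.409 to 1.12 ± 0.117 FPKM, and PANC-1 had no read of it. Among feedback genes of NF-kB, 10 of 16 were higher in treated BxPC3 and 4 in PANC-1, beside 33.7% and 48.1% of all genes, with a median of -0.65 after -1.23 without drug. Of their interactions 8 went toward PANC-1 and 5 toward BxPC3, beside 25.2% and 26.6%. TNFAIP3, the deubiquitinase A20, was at 29.4, 29.5, 28.1 and 26.5 FPKM in treated BxPC3 and 3.61, 3.43, 3.67 and 3.59 in treated PANC-1, and TNFAIP2 narrowed from -4.50 to -2.40 ± 0.08.

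For the genes that carry gemcitabine into the cell, activate it and destroy it, 14 of 27 tested were higher in treated PANC-1 and 8 in treated BxPC3, close to the 48.1% and 33.7% of all genes, with a median of 0.20 (0.19 for all genes) that turned to -0.05 under joint scaling (11 and 10). The largest differences of this list were those of CDA and SLC29A1. SLC29A1 (chr6:44219505-44234151), the main uptake transporter, was at 75.9, 57.1, 55.3 and 54.6 FPKM in treated PANC-1 and 7.36, 8.42, 7.52 and 8.03 FPKM in treated BxPC3, a 7.75-fold difference. Without drug the difference had been 17.6-fold, and SLC29A1 had risen in BxPC3 from 3.55 ± 0.0954 FPKM. The second equilibrative transporter, SLC29A2, was at 10.6 ± 0.517 FPKM in treated BxPC3 and 7.19 ± 1.48 in treated PANC-1. The concentrative transporter SLC28A3 was at 1.32, 1.46, 1.13 and 1.02 FPKM in treated BxPC3 with 2 reads in treated PANC-1, and SLC28A1 had 19 and 8 reads and was not tested.

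Cytidine deaminase went the other way. CDA (chr1:20588948-20618908) was at 46.4, 49.4, 50.9 and 55.3 FPKM in treated BxPC3 and 0.335, 0.319, 0.407 and 0.129 FPKM in treated PANC-1, a difference of -5.31 ± 0.09 (adjusted p = 2.49e-11). Its level in BxPC3 had risen from 11.01 ± 0.538 FPKM, and the line difference widened, with an interaction of -1.80 ± 0.10 (adjusted p = 2.79e-10). SAMHD1, a deoxynucleotide triphosphatase that also hydrolyses the triphosphates of some nucleoside drugs, rose in BxPC3 from 1.81 ± 0.09803 to 6.93, 6.56, 6.63 and 6.32 FPKM and was at 1.98, 2.11, 2.23 and 2.27 FPKM in treated PANC-1, a 3.08-fold difference that had been 1.22-fold without drug. DCTD, which deaminates the monophosphate, was at 32.01 ± 1.94 FPKM in treated BxPC3 and 38.6 ± 1.01 in treated PANC-1, a difference of 0.27 ± 0.06 that joint scaling reduced to 0.01 (adjusted p = 0.935).

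The activating kinase DCK was at 7.07, 13.7, 12.96 and 13.6 FPKM in treated PANC-1 and 6.08, 6.63, 6.09 and 5.97 in treated BxPC3. PANC-1 library 1 lay far below its companions, and the difference of 0.80 ± 0.18 was 1.01 without it. Neither line changed DCK with drug beyond the test (changes of 0.21 and 0.01, adjusted p = 0.236 and 0.979). CMPK1, the next kinase, did not differ by the test (-0.02 ± 0.17, adjusted p = 0.934), but it was at 23.97, 42.8, 41.9 and 43.2 FPKM in treated PANC-1, and without library 1 the difference was 0.19 (adjusted p = 4.83e-04). NME1 and NME2, neighbouring kinase genes that share reads and whose split is uncertain, were at 12.6 ± 0.982 and 0.938 ± 0.185 FPKM in treated PANC-1 and 7.901 ± 0.769 and 2.37 ± 0.304 in treated BxPC3.

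Of the 4 nucleotidases, NT5E and NT5C2 were higher in PANC-1. NT5E, the surface enzyme CD73, was at 165, 227, 228 and 225 FPKM in treated PANC-1 and 47.3, 45.4, 42.03 and 42.7 FPKM in treated BxPC3, and had risen in both. NT5C2, the cytosolic nucleotidase II, was at 21.95 ± 2.13 and 7.03 ± 0.624 FPKM, while NT5C3A did not pass the test (0.17 ± 0.14, adjusted p = 0.281). It did pass without PANC-1 library 1 (0.32, adjusted p = 2.78e-05). It also passed with each library's trend with GC content removed (0.30, adjusted p = 7.1e-05), a setting added after the data had been seen. NT5C was slightly higher in BxPC3 (-0.40 ± 0.16, adjusted p = 0.04202), a call lost under TPM scaling (-0.26, adjusted p = 0.152) and on leaving out any 1 of 6 of the 8 libraries, with differences of -0.42 to -0.32. Efflux pumps of nucleotide analogues lay on the PANC-1 side as well: ABCC4 was at 5.58, 6.83, 7.13 and 6.84 FPKM in treated PANC-1 and 1.59, 1.52, 1.46 and 1.38 in treated BxPC3, narrowed from 13.2 ± 0.258 and 0.941 ± 0.107, and ABCC5 at 5.55 ± 0.109 and 3.78 ± 0.281 FPKM. ABCC10 did not pass the test (0.10 ± 0.11, adjusted p = 0.401), except under TPM scaling (0.30, adjusted p = 0.0413).

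Ribonucleotide reductase, the enzyme that the diphosphate inhibits, was higher in treated PANC-1 in all 3 subunits. RRM1, the large subunit, was at 38.2, 47.8, 47.3 and 48.7 FPKM in treated PANC-1 and 25.4, 24.9, 24.4 and 25.1 in treated BxPC3, having risen in both lines from 20.6 ± 0.705 and 13.7 ± 0.327. RRM2, the S-phase small subunit, was at 9.53, 14.5, 15.02 and 14.2 FPKM in treated PANC-1, up from 2.82 ± 0.172, and at 8.602, 7.92, 8.45 and 8.4996 FPKM in treated BxPC3, up from 2.27 ± 0.2604. RRM2B, which encodes the alternative small subunit used outside S phase, was at 10.96 ± 3.02 FPKM in treated PANC-1 and 2.89 ± 0.195 in treated BxPC3. Among the other enzymes of pyrimidine supply, TK1 was at 90.4, 96.4, 103 and 107 FPKM in treated BxPC3 and 44.8, 30.5, 30.4 and 29.6 in treated PANC-1, TK2 at 7.97 ± 0.186 and 4.18 ± 0.149, and TYMS, the thymidylate synthase, at 11.5 ± 0.832 and 10.05 ± 0.921. TYMS did not pass the test (-0.18 ± 0.08, adjusted p = 0.0656), but did under joint scaling (-0.42, adjusted p = 0.00125) and without PANC-1 library 1 (-0.22, adjusted p = 0.00897). CTPS1, which makes CTP, had been 2.18-fold higher in PANC-1 and ended at 12.4, 11.9, 12.1 and 12.7 FPKM in treated BxPC3 and 12.7, 12.96, 13.4 and 12.97 in treated PANC-1. The direction of this small difference depended on the scale (0.08 ± 0.05 as deposited, -0.17 under joint scaling and 0.27 under TPM scaling). CTPS2 was at 5.52 ± 0.356 FPKM in treated PANC-1 and 2.31 ± 0.159 in treated BxPC3.

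The last members, HMGA1 (a chromatin protein) and ELAVL1 (the RNA-binding protein HuR, which binds the DCK message), were slightly higher in treated PANC-1, at 0.46 ± 0.10 and 0.20 ± 0.05. Joint scaling ended both calls (0.19 and -0.05, adjusted p = 0.146 and 0.396).

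**Figure D4:**
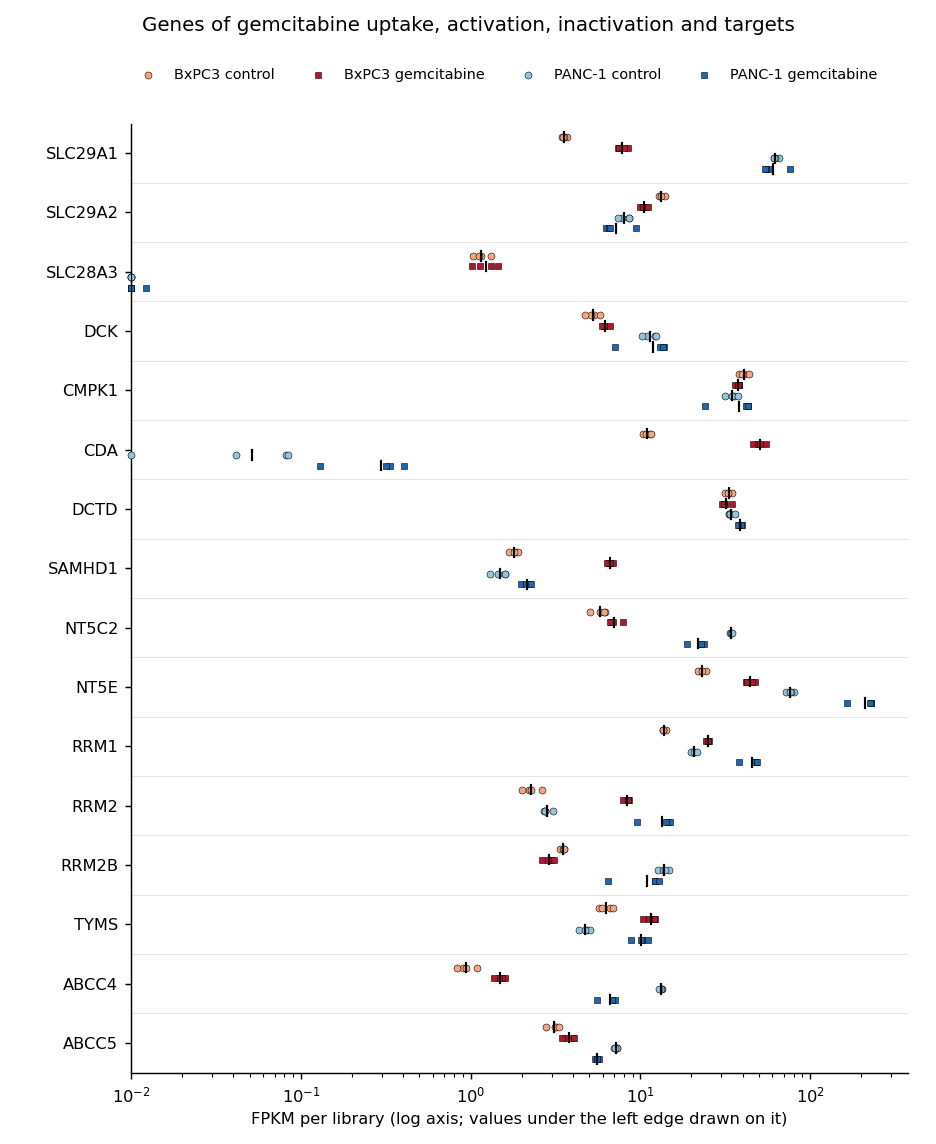
FPKM of gemcitabine uptake, activation, inactivation and target genes (horizontal axis, logarithmic, with values under the left edge drawn on it) in each of the 16 libraries, by line and treatment; each point is a library and black ticks are group means. SLC29A1 lies higher in PANC-1 and CDA higher in BxPC3 in both states, SAMHD1 parts with drug, and RRM1 and RRM2 rise in both lines.

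Of 43 genes active at the step from G1 to S phase, 30 were higher in treated BxPC3 and 9 in PANC-1, with a median of -0.52 that had been -0.19 without drug, and for 17 the interaction was called toward BxPC3 and for 8 toward PANC-1, beside 26.6% and 25.2% of all genes. CDC25A, the phosphatase that starts S phase, was at 9.81, 9.85, 9.79 and 10.1 FPKM in treated BxPC3 and 3.37, 3.63, 3.42 and 3.72 in treated PANC-1, and PCNA, the sliding clamp of replication, at 262 ± 15.1 and 99.8 ± 3.87 FPKM. CCNE1, encoding cyclin E1, moved from 2.396 ± 0.224 and 4.05 ± 0.327 FPKM to 8.701 ± 0.569 in BxPC3 and 5.88 ± 0.366 in PANC-1. CCND1, encoding cyclin D1, was the only one of the list whose 2-fold difference appeared with drug, and it lay on the PANC-1 side: it was at 161, 179, 173 and 175 FPKM in treated PANC-1, after 61.3 ± 0.6701 without drug, and at 70.2, 71.9, 69.97 and 67.98 FPKM in treated BxPC3, where it did not change beyond the test (-0.03, adjusted p = 0.542).

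The 39 genes of G2 and mitosis had a median drug change of 1.13 in BxPC3 and 1.52 in PANC-1, and the interaction was called toward PANC-1 for 20 and toward BxPC3 for 5, beside 25.2% and 26.6% of all genes. The treated lines themselves were close, with 17 higher in PANC-1 and 13 in BxPC3 and a median of 0.13 that turned to -0.12 under joint scaling (9 and 17). KIF20A, a kinesin of cytokinesis, had been 3.69-fold higher in BxPC3 and was at 15.6, 16.01, 15.1 and 14.9 FPKM in treated BxPC3 and 11.6, 11.4, 11.2 and 11.9 in treated PANC-1. CCNA2, encoding cyclin A2, was at 29.8 ± 1.11 FPKM in treated BxPC3 and 16.7 ± 1.24 in treated PANC-1 after 11.1 ± 0.126 and 3.34 ± 0.249, and FOXM1, the factor that drives the mitotic programme, at 29.5 ± 1.08 and 14.1 ± 1.16. Without PANC-1 library 1, 23 of the 39 were higher in PANC-1 and 13 in BxPC3.

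CDKN1A, the cyclin-dependent kinase inhibitor p21, was at 104, 108, 108 and 110.2 FPKM in treated BxPC3 and 39.9, 33.8, 35.3 and 32.7 FPKM in treated PANC-1, having risen in both from 53.6 ± 0.888 and 11.6 ± 0.66005. PHLDA3, an inhibitor of AKT, narrowed from 82.2 ± 6.57 FPKM in BxPC3 and 1.88 ± 0.505 in PANC-1 to 45.2 ± 4.29 and 3.35 ± 1.11.

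Cytosolic ribosomal protein genes had a median drug change of -0.91 in BxPC3 and -0.40 in PANC-1, and the interaction was called toward PANC-1 for 53 of 67 and toward BxPC3 for 0 (1 without PANC-1 library 1), beside 25.2% and 26.6% of all genes. Their median line difference, -0.55 without drug, was -0.06 between the treated lines (-0.33 under joint scaling and 0.12 under TPM scaling), with 24 genes higher in treated PANC-1 and 29 in BxPC3. The balance of these calls followed the scale, with 17 and 36 under joint scaling and 31 and 18 under TPM scaling. RPS4X was at 244, 256, 269.7 and 294 FPKM in treated BxPC3 and 355, 312, 312 and 306 in treated PANC-1 after 622 ± 51.7 and 426 ± 10.2 without drug; the treated difference was lost under joint scaling (0.01, adjusted p = 0.936). RPS16 was at 2459, 1839, 1834 and 1775 FPKM in treated PANC-1 and 284, 295, 329.8 and 355 in treated BxPC3, and RPS19 was at 269 ± 24.9 FPKM in treated BxPC3 and 97.6 ± 12.2 in PANC-1. Ribosomal protein genes have many processed copies, so the split of their reads is uncertain.

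In the integrated stress response, in which ATF4 raises genes of amino acid supply, 21 of 25 genes were higher in treated PANC-1 and 3 in BxPC3, with a median of 1.33 (18 and 3 under joint scaling). Over the 26 tested across all 16 libraries, the median without drug had been 0.74. CARS, the tRNA synthetase for cysteine, was at 52.8, 50.1, 51.2 and 49.4 FPKM in treated PANC-1 and 5.799, 6.31, 6.79 and 7.43 in treated BxPC3. GARS, the synthetase for glycine, was at 234, 259.7, 264 and 253 and 42.1, 40.6, 42.7 and 43.6 FPKM in the same order. SESN2, a stress-induced inhibitor of mTORC1, had been alike at 20.6 ± 0.6098 and 21.9 ± 1.07 FPKM and parted to 10.8, 10.01, 9.36 and 9.63 FPKM in treated BxPC3 and 39.96, 30.5, 31.5 and 29.7 in treated PANC-1. The median drug change of the list was -0.42 in BxPC3 and 0.00 in PANC-1.

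Targets of NRF2, the factor of the oxidative stress response, had a median line difference of 0.02 without drug, and with drug 18 of 27 were higher in BxPC3 and 8 in PANC-1, beside 33.7% and 48.1% of all genes, with a median of -0.52. Of their interactions 17 went toward BxPC3 and 2 toward PANC-1 (19 and 5 without PANC-1 library 1), beside 26.6% and 25.2% of all genes. NQO1, a quinone reductase, went from 47.7 ± 3.29 FPKM in BxPC3 and 72.1 ± 1.07 in PANC-1 to 109, 110.3, 111 and 119 FPKM in treated BxPC3 and 52.6, 55.5, 56.9 and 56.8 in treated PANC-1. AKR1B1, an aldose reductase, changed order in the same way, to 76.7 ± 4.62 and 31.5 ± 2.83 FPKM from 24.2 ± 2.11 and 36.8 ± 1.13. ALDH3A1, GPX2 and AKR1B10, which detoxify aldehydes and peroxides, were high in BxPC3 in both states, at 137 ± 9.98, 88.96 ± 5.57 and 34.5 ± 1.003 FPKM in treated BxPC3 and below 1 FPKM in treated PANC-1.

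In antigen presentation by class I molecules, 15 of 18 genes were higher in treated BxPC3 and 1 (CANX) in PANC-1, with a median of -0.88 after -0.98. PSMB10, an immunoproteasome subunit, was at 11.2, 11.6, 14.9 and 14.4 FPKM in treated BxPC3 and 0.869, 0.903, 0.614 and 1.01 in treated PANC-1, and TAP2, a peptide transporter, had been level at 2.09 ± 0.132 and 2.24 ± 0.151 FPKM and ended at 5.82 ± 0.195 and 3.46 ± 0.247. Cholesterol synthesis was called higher in BxPC3 for 14 of 23 genes and in PANC-1 for 3 (median -0.66 after -0.10). HMGCS1, the synthase before HMG-CoA reductase, was at 33.6, 30.8, 30.7 and 30.2 FPKM in treated BxPC3 and 6.23, 8.43, 8.45 and 8.3996 in treated PANC-1. Hypoxia and glycolysis genes were split, with 13 of 24 higher in treated BxPC3 and 6 in PANC-1 (median -0.48): SLC2A1, the glucose transporter GLUT1, was at 153, 155, 153 and 152 FPKM in treated BxPC3 and 35.5, 27.2, 27.5 and 25.6 in treated PANC-1, where it had risen from 10.02 ± 0.808, and BNIP3, a mitophagy receptor, at 10.97 ± 0.774 FPKM in treated PANC-1 and 0.266 ± 0.0588 in treated BxPC3.

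Of 33 genes of the extracellular matrix, 18 were higher in treated BxPC3 and 14 in PANC-1 (median -0.35 after -0.72). COL17A1, a collagen of the hemidesmosome, was at 88.5, 92.3, 85.1 and 81.8 FPKM in treated BxPC3 and 0.287, 0.305, 0.1997 and 0.215 in treated PANC-1. LAMB3, a chain of its anchoring laminin, was at 103, 109, 111 and 111 and 1.94, 1.54, 1.56 and 1.64 FPKM in the same order. COL13A1, LAMA4 and COL18A1, described above, lay on the PANC-1 side. Of 22 matrix proteases and inhibitors, 15 were higher in treated BxPC3 and 7 in PANC-1 (median -2.78 after -1.79). KLK10, a kallikrein, was at 41.6 ± 2.53 FPKM in treated BxPC3 and 0.0348 ± 0.0293 in PANC-1, and ADAMTS1, a protease of aggrecan and versican, rose in BxPC3 from 1.69 ± 0.0815 to 12.1, 13.01, 12.03 and 11.9 FPKM against 1.11, 1.14, 1.22 and 1.16 in treated PANC-1.

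In TGF-beta signalling, which runs through SMAD4, 10 of 24 genes were higher in each treated line (median -0.03, or 0.16 under TPM scaling; 8 in PANC-1 and 13 in BxPC3 under joint scaling). The receptor gene TGFBR2 had been 1.91-fold higher in PANC-1 and ended at 46.4, 45.1, 43.5 and 41.4 FPKM in treated BxPC3 and 41.4, 43.4, 43.2 and 43.7 in treated PANC-1, a difference called in favour of BxPC3 under joint scaling (-0.30, adjusted p = 0.00103). LTBP1 and LTBP2, which store latent TGF-beta in the matrix, were at 33.1 ± 0.4396 and 69.3 ± 11.2 FPKM in treated PANC-1 and 3.96 ± 0.228 and 2.42 ± 0.204 in treated BxPC3. EGFR ligands and feedback genes of the MAPK pathway were called higher in each treated line for 9 of 24, beside 48.1% of all genes in PANC-1 and 33.7% in BxPC3 (median -0.01, or 0.18 under TPM scaling; 8 in PANC-1 and 12 in BxPC3 under joint scaling). Over the 25 tested across all 16 libraries, the median without drug had been -0.85. Of their interactions 15 went toward PANC-1 and 6 toward BxPC3, beside 25.2% and 26.6% of all genes. SPRY4, a feedback inhibitor induced by ERK, was at 27.3, 23.9, 25.1 and 24.3 FPKM in treated PANC-1 and 2.25, 2.31, 2.18 and 2.397 in treated BxPC3. ETV5, an ERK-induced transcription factor, was at 28.6, 30.2, 31.3 and 31.9 and 2.51, 2.38, 2.602 and 2.25 FPKM in the same order, while DUSP4, an ERK phosphatase, was at 39.03 ± 0.5996 FPKM in treated BxPC3 and 0.592 ± 0.108 in treated PANC-1.

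**Figure D5:**
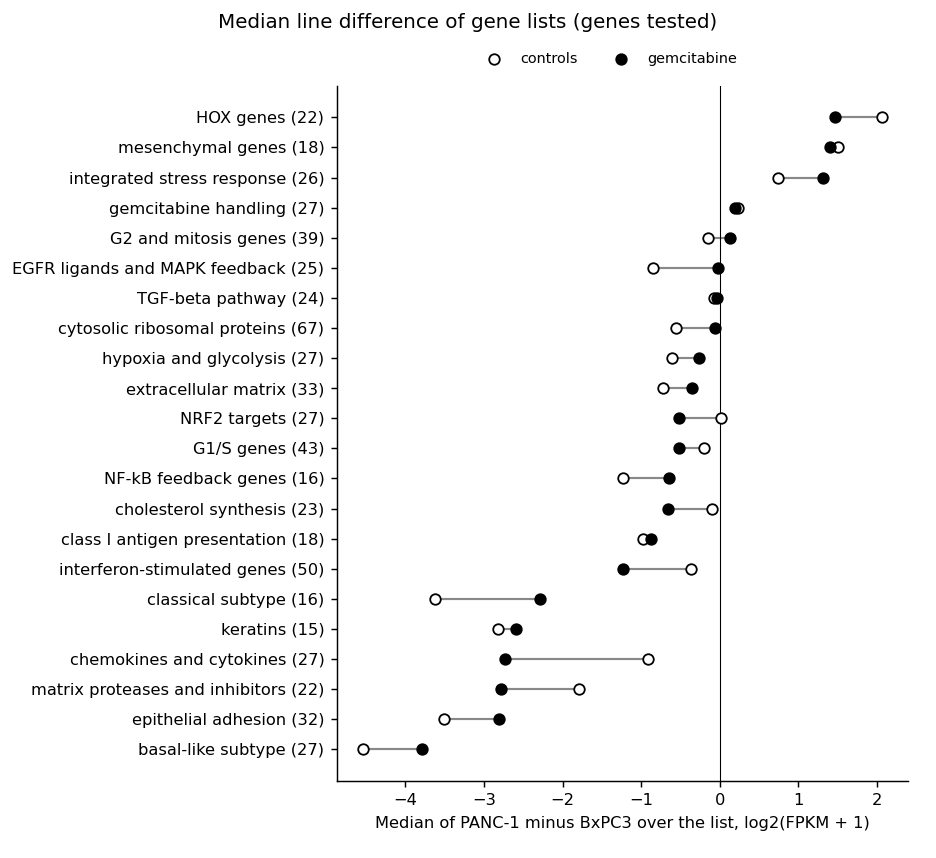
Median line difference of each gene list, PANC-1 minus BxPC3 on log2(FPKM + 1) (horizontal axis), without drug and with gemcitabine, over the genes tested across all 16 libraries, so that a few medians differ slightly from those of the 8-library comparison given in the text. Chemokines, interferon-stimulated genes and NRF2 targets lie farther toward BxPC3 with drug, and ribosomal protein, epithelial and classical-subtype genes lie closer to equality.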

How the data were processed

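Poly-A enriched RNA was sequenced from 16 libraries, 4 for each of the 2 lines with and without gemcitabine. Per the submitters' processing notes CASAVA and HISAT2 were used, and mm10 is named although all 58735 gene identifiers match GENCODE 29 human genes, from which the GRCh38 coordinates were taken. For the counting, no strand setting is given in the sources used here, and reads of overlapping or antisense genes cannot be told apart. The authors deposited FPKM values and gene lengths in 1 table for each line. FPKM times length was a whole multiple of a step in every library (tolerance 0.02 reads, 100% of values), which gave back the reads. The implied library sizes lay within 0.743% of median-ratio sizes computed within each table and 7.89% to 11.7% from joint ones.

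The tables were joined by gene identifier. limma 3.58.1 (R 4.3.3, moderated variances with trend and robust fitting) was run on log2(FPKM + 1), once on the 8 treated libraries and once on all 16 with 1 group per line and treatment. Genes at 1 FPKM or more in at least 4 libraries were tested. The fit was also run on simulated data with equal spread for all genes, no GC effect, no outlying library and no separate table scales, so that run does not cover these features. No 2 libraries agreed within sampling noise. Named genes were unique protein-coding symbols: the 10 largest differences each way without overlap of the groups, the 5 largest interactions per class and direction, up to 4 genes of smallest p and 2 of smallest interaction p per list (23 lists), every gemcitabine gene, SMAD4 and CDKN2A, of which the text uses a part; a few genes and 1 list are not reported here. Others (CDH5, PRSS1, TP63, GATA6, ZEB1, IFI6, IFI44L, ISG15, IFIT1, USP18, IFNL1, CXCL10, IL6, SAMHD1, SESN2, the neighbours of PSAP and SMAD4) were chosen after their values were seen. The comparison, members and lists were chosen with earlier results of these data known.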

Additional observations from a re-analysis of the deposited data

Results flagged for a closer look

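In a group of 4 libraries, the library farthest from the others was looked at again where its distance to the nearest one took up nearly the whole range of the group (Dixon's criterion at 95%). Of 275 groups of values tested for the named genes, 50 (18.2%) met it, where chance gives about 1 in 20, and 47 of the 50 concerned PANC-1 gemcitabine library 1. Its FPKM was the highest of the group for ABCC10 (7.5), ALDH3A1 (0.752), ANPEP (86.4), ARSI (37.7), CD81 (75.3), CHST3 (19.4), COL18A1 (246), CORO2B (11.7), CTXN1 (26.5), DDIT4 (80.1), DKK3 (109), FN1 (6.67), FOXM1 (15.8), HMGA1 (740.0), IFI6 (114), IGFBP4 (330.0), ISG15 (112), LTBP2 (86.0), MMP2 (54.6), NTSR1 (139), PADI2 (215), PHLDA3 (5.0), PPP1R14A (149), PSAP (2580.0), RPS16 (2460.0), RPS19 (116), RPS4X (355), SLC29A1 (75.9), SLC29A2 (9.39), SLCO4A1 (53.1), TK1 (44.8) and TNFAIP2 (26). It was the lowest for CCL28 (1.01), CMPK1 (24.0), DCK (7.07), F2R (38.2), HMGCS1 (6.23), IFIT1 (5.85), MEX3C (6.83), NT5C3A (7.47), NT5E (165), RGS17 (4.69), RRM1 (38.2), RRM2 (9.53), RRM2B (6.45), SMAD4 (3.03) and VIM (176). The other 3 were IL6 in BxPC3 gemcitabine library 1 (3.43 FPKM), RGS17 in the same library (0.205 FPKM) and SNAI2 in PANC-1 gemcitabine library 4 (0.962 FPKM). The values of PANC-1 library 1 followed the GC content of the genes (a median deviation of 0.44 at the highest GC content and -0.41 at the lowest, against -0.13 to -0.16 and 0.12 to 0.15 in its companions), and whether GC content alone sets them was not tested.

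The genes listed here were named for the largest interactions of their class. They were thus chosen by the value given, and the list tests nothing. Other named genes with a called interaction, among them IFI6, KRT6A and CDA, are not in it. Given for each gene is the change of its line difference with drug on the log2 scale. It moved toward PANC-1 for ADAM19 (2.11), ARSI (2.44), COL13A1 (2.34), CORO2B (2.18), CP (3.80), F2R (2.27), HAS3 (3.76), IGFBP4 (2.81), IL33 (2.95), ITPKB (2.30), LAMA4 (2.15), MSMB (3.91), NDRG1 (3.33), NGFR (3.19), NTN4 (3.11), NUPR1 (3.56), RGS17 (2.36), SNCG (3.35), SORL1 (2.05), SPP1 (5.56) and TXNIP (2.94). It moved toward BxPC3 for ALPG (-3.21), AZGP1 (-3.18), CCL2 (-2.71), CCL28 (-2.97), CTGF (-1.78), CTXN1 (-2.18), CYP1A1 (-3.68), DKK1 (-2.27), EDN1 (-3.42), FN1 (-3.84), HSPA6 (-2.25), PPBP (-4.11), PRRX2 (-2.35), RFLNA (-2.54), SERPINB2 (-3.95), SLCO4A1 (-1.78), SOX9 (-1.97), SPRR2A (-3.49), SPRR2D (-3.62) and SPRR2E (-4.99).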

How the results depend on the processing

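The 6335 genes higher in treated PANC-1 became 9554 without the filter on low values, and the 2493 higher by at least 2-fold became 3773 under TPM scaling; the other alternatives run kept both counts, and that of BxPC3, within 1.5 times. The numbers of genes remaining, appearing and shrinking stayed within 1.5 times under all alternatives run. The number that widened (108) was 278 with 0.1 added in place of 1, 244 under TPM scaling and 270 with limma-voom run on reads, and the number that narrowed (298) was 793, 562 and 939. The number that changed direction (2) was 17, 14 and 17, and 2 to 4 when 1 library was left out. ELAVL1 changed sign to -0.054 under joint scaling and -0.023 with voom. Among the named genes 9 lost their call in at least 1 alternative (DCTD, DDIT4, ELAVL1, FN1, HMGA1, IGFBP4, NT5C, PRRX2 and RPS4X) and 8 gained one. Voom and the removal of the GC trend were added after the data had been seen. Libraries of the same number did not deviate together (correlations of -0.28 to 0.008 in 4 pairs), and a fit with the replicate number as a block called 6105 and 4263 genes. Depth limits the genes near 0.1 FPKM, where 3 reads on 1 kb correspond to 0.0852 to 0.138 FPKM, and folds against groups with almost no reads were not given.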
